A study of Mus musculus with 6 samples.

Results

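Kinesins are the motor proteins that walk along or dismantle microtubules. The 39 genes described here are mouse kinesin family members with Kif symbols, among them Kifap3, the non-motor subunit of a kinesin complex. Each had a probe set of its own among 19937 measured genes. Each gene was read from the probe set that named it alone and had the highest mean over all 6 arrays. They were divided by known role into 11 mitotic kinesins, 18 transport kinesins and 10 others that act in cilia, in signaling or as microtubule depolymerases. Cenpe, a mitotic kinesin without a Kif symbol, is not among the 39 and is given with the spindle partners. Each of 6 Affymetrix arrays held the RNA of 1 tumor, which grew from 750000 injected 4T1 cells (a carcinoma line of mouse breast) in a mammary gland of a Balb/C mouse. Oral dosing started on day 7 and lasted 14 days, with water for 3 of the tumors and TKI258 at 40 mg/kg daily for the other 3. TKI258, also called dovitinib, blocks several receptor tyrosine kinases, among them the receptors for FGF, VEGF and PDGF. The age of the mice is not stated in the labels, 4T1 was the only tumor model, and the host supplied vessels, stroma and immune cells. Whole tumors were profiled, so that fewer dividing cells and less kinesin RNA per cell cannot be told apart.

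Mitotic kinesins build the bipolar spindle, move and hold chromosomes, and assemble the central spindle where the daughter cells separate. Most of their genes are switched on late in the cell cycle, so their RNA is scarce in resting cells. Transport kinesins carry vesicles, mitochondria and other cargo in dividing and resting cells alike, and several of them serve mainly in neurons. In tumors the mitotic members are widely read as part of the proliferation program, and Kif11 has itself been a drug target.

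The tissue label was checked first. Krt8 and Krt18, keratins of simple epithelium, read 11.55 to 11.88 and 11.13 to 11.70 over the 6 tumors, and Epcam, an epithelial adhesion protein, read 6.55 to 8.03, all above the array medians (6.38 to 6.44). These 3 were picked from 10 epithelial markers with their values known. Cldn7 of the same list read below the medians in every tumor, with group means of 5.90 in water and 6.11 in TKI258 tumors. Pairs of water arrays correlated at 0.988 to 0.992 and pairs of TKI258 arrays at 0.981 to 0.993. TKI258 replicate 3 and, less so, water replicate 1 stood apart in B cell markers, with list means of 8.81 and 6.89 against 4.90 to 5.20 in the other tumors. Water replicates 2 and 3 stood apart in keratinocyte markers, with list means of 6.73 and 6.33 against 4.77 to 5.01. Over all 34760 probe sets, 0 (0%) passed limma's moderated test at an adjusted p of 0.05 (Benjamini-Hochberg), while 2803 had an unadjusted p under 0.05. Every kinesin result below is therefore a difference that did not pass over the whole array.

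The control regions of the mitotic members are shown before their values, because genes switched on in late cell cycle often carry TTTGAA near their start. This is the core of the cell cycle genes homology region, which the MuvB subunit LIN54 recognizes. A RefSeq table (GRCm38.p6) of promoters, from 250 bases before to 50 bases after each start, held 31 of the 39 members and 27025 genes in all. TTTGAA, which reads as TTCAAA on the other strand, was present in 9 of 10 mitotic members with a promoter, in 1 of 12 transport members, in 2 of 9 other members and in 20.2% of all genes in the table. In the 250 bases before the start alone it was in 5 of 10 mitotic members, 1 of 12 transport members and 18.3% of all genes. Both mitotic counts include Kif2c and Kif14, whose starts in this promoter set lie 3852 and 1547 bases inside the annotated gene. It was within 40 bases of the start in 7 of 10 mitotic members, 0 of 12 transport members and 4.84% of all genes, a distance chosen after the sites were seen. CCAAT, which NF-Y binds and which reads as ATTGG on the other strand, was in 6 of 10 mitotic and 4 of 12 transport members against 41.1% of all genes. TTTGGCGC, an E2F type site that reads as GCGCCAAA on the other strand, was in 2 of 10 mitotic members against 0.585% of all genes. Another E2F type site, TTTCGCGC, was in 0 of 10 mitotic members against 0.374% of all genes. Both strands were searched for all motifs, and none of the 42 distinct sites found in members overlapped another. A match of letters is not evidence that a factor binds there.

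The first sequences are the 80 bases before the start of Kif11 (chr19:37376302-37376381, plus strand) and Kif15 (chr9:122951001-122951080, plus strand), chosen because these are the motors that push the spindle poles apart and both hold TTCAAA 19 bases before the start. Capitals mark TTCAAA in both, the reversed CCAAT motif in Kif11 and GCGCCAAA, the E2F type site, in Kif15.
Kif11: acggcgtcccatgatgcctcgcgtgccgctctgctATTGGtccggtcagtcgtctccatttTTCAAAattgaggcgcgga
Kif15: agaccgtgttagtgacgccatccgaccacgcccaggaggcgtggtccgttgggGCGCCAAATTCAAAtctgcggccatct

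Windows of 30 bases around the site nearest the start follow for the other mitotic members with a site there, read in the direction of the gene, with TTTGAA in capitals on either strand and, in Kif23, also the reversed CCAAT motif. They lie at chr7:127042421-127042450 (minus strand) for Kif22, chrX:100626072-100626101 (plus) for Kif4, chr11:102925104-102925133 (minus) for Kif18b, chr19:34922358-34922387 (plus) for Kif20b and chr9:61946780-61946809 (minus) for Kif23. In Kif20b the motif stands 2 times in a row. The start used for Kif22 lies 47 bases inside the annotated gene, so its site, 17 bases before that start, also lies inside the gene.
Kif22: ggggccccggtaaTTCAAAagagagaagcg
Kif4: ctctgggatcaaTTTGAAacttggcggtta
Kif18b: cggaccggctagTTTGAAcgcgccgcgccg
Kif20b: gccattgTTTGAATTTGAAaaccgggagga
Kif23: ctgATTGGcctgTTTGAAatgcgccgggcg

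Of the remaining mitotic members, Kif18a held no TTTGAA and is shown for its GCGCCAAA, 10 bases before the start (chr2:109280708-109280737, plus). Kif24, a member of the third class with a lower signal in TKI258 tumors, is shown for TTCGAA, a variant of the motif present in 1.80% of all genes (chr4:41464857-41464886, minus). That site is 26 bases before a start that lies 71 bases inside the annotated gene. The TTTGAA of Kif2c and Kif14 lay 103 and 228 bases before starts that are themselves 3852 and 1547 bases inside the annotated gene, so these are not shown.
Kif18a: catctgaggcccagcctctgGCGCCAAAct
Kif24: tcggcgcgcgcgTTCGAActggcgcttgtg

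All 11 mitotic kinesins had lower mean signals in TKI258 than in water tumors. A difference below 0 was found for 43.4% of all genes. In 10 of the 11 every TKI258 tumor was below every water tumor, against 6.49% of all genes. The same 10 had a lower signal with an unadjusted limma p under 0.05, as did 3.35% of all genes. Their log2 differences (TKI258 minus water) ranged from -0.65 to -0.26 with a median of -0.39, where the median over all genes was 0.02. None passed over all probe sets, with limma adjusted p between 0.484 and 0.647.

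**Figure D1:**
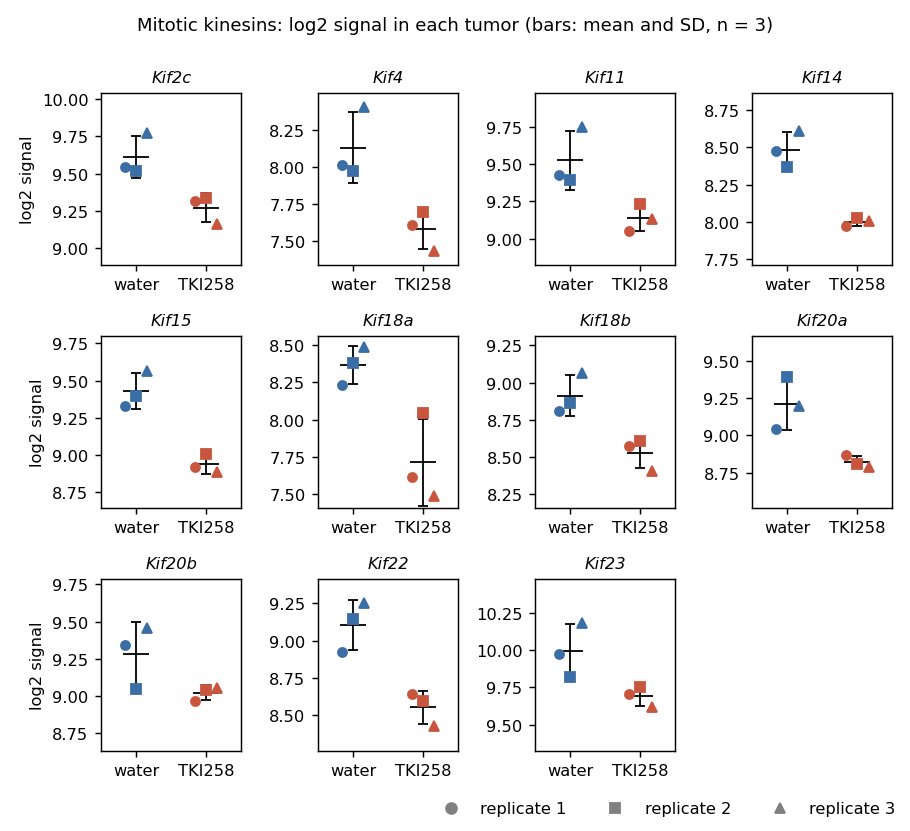
Log2 signal (y axis) of the 11 mitotic kinesins in each water (blue) and TKI258 (red) tumor, with symbols for the replicate number and bars for the mean and SD of 3 tumors; all panels span the same number of log2 units. TKI258 tumors lie below all water tumors in every panel but that of Kif20b, where water replicate 2 (9.05) lies among them.

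Kif11 (Eg5) slides antiparallel microtubules apart and keeps the spindle bipolar. Its log2 signal was 9.43, 9.40 and 9.75 in water replicates 1, 2 and 3 and 9.05, 9.23 and 9.13 in TKI258 replicates 1, 2 and 3. The groups did not overlap, water replicate 3 was the highest tumor, and the difference was -0.39 ± 0.12 (log2 difference ± moderated SE, n = 3 per group), a 1.31-fold lower signal. Kif15, which can take over part of the work of Kif11 on bundled spindle fibers, read 9.33, 9.40 and 9.56 in water and 8.92, 9.01 and 8.89 in TKI258 tumors. Its tumors kept closer together within each group (SD 0.12 and 0.06), and the difference was -0.49 ± 0.10, or 1.41-fold lower. Limma adjusted p was 0.574 for Kif11 and 0.484 for Kif15.

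Among motors that act on chromosomes and microtubule ends, Kif18a, which shortens kinetochore fibers and damps chromosome movement, had the largest difference of the mitotic members (-0.65 ± 0.16, 1.57-fold lower, limma adjusted p = 0.549). It read 8.23, 8.38 and 8.49 in water and 7.61, 8.04 and 7.48 in TKI258 tumors. The TKI258 tumors were spread (SD 0.29), with replicate 2 nearest the water group. Leaving out TKI258 replicate 3 gave -0.54, and leaving out TKI258 replicate 2 gave -0.82. Kif18b, which trims astral microtubules, read 8.81, 8.86 and 9.07 in water and 8.57, 8.61 and 8.41 in TKI258 tumors (-0.38 ± 0.11). Its groups were separate, again with water replicate 3 highest and TKI258 replicate 3 lowest. Kif2c (MCAK), a depolymerase that frees wrongly attached microtubules from kinetochores, read 9.54, 9.51 and 9.77 in water and 9.32, 9.34 and 9.16 in TKI258 tumors (-0.34 ± 0.11). It had the same highest and lowest tumors as Kif18b.

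The chromokinesins, which bind chromosome arms, had differences of like size. Kif22 (Kid), which pushes chromosome arms toward the spindle equator, read 8.92, 9.15 and 9.25 in water and 8.64, 8.59 and 8.43 in TKI258 tumors. That is a difference of -0.55 ± 0.12, or 1.47-fold lower, with no overlap. Kif4, which also organizes the central spindle together with PRC1, read 8.01, 7.97 and 8.40 in water and 7.61, 7.70 and 7.44 in TKI258 tumors (-0.55 ± 0.14, 1.46-fold lower). Limma adjusted p was 0.484 for Kif22 and 0.567 for Kif4. A pseudogene, Kif4-ps, is named by another probe set, and whether probes are shared between the copies was not analysed here.

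Motors of the central spindle and of cell separation were also lower, with a smaller difference for Kif23 and Kif20b than for Kif14. Kif14, which recruits citron kinase to the midbody, read 8.47, 8.37 and 8.61 in water and 7.969, 8.028 and 8.002 in TKI258 tumors. The TKI258 tumors were almost alike (SD 0.03), the groups did not overlap, and the difference was -0.48 ± 0.09, or 1.40-fold lower. It had the smallest unadjusted limma p of the members (0.00142), with an adjusted p of 0.484. A weaker probe set of Kif14, at 3.73 to 3.93 in all tumors, differed by 0.02 ± 0.09, and the mean of both probe sets gave -0.23.

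Kif23 (MKLP1), the motor of the centralspindlin complex, read 9.98, 9.82 and 10.18 in water and 9.71, 9.75 and 9.62 in TKI258 tumors (-0.30 ± 0.11). The closest tumors of the groups, water replicate 2 and TKI258 replicate 2, were still in the order of the group means. Kif20a (MKLP2), which brings the Aurora B complex to the central spindle, read 9.04, 9.40 and 9.20 in water and 8.87, 8.81 and 8.79 in TKI258 tumors (-0.39 ± 0.11). In Kif20a water replicate 2 was the highest tumor, unlike in the other 10 mitotic members, where water replicate 3 was. Kif20b (MPP1), needed late in cell separation, read 9.35, 9.05 and 9.46 in water and 8.97, 9.04 and 9.06 in TKI258 tumors. It was the mitotic member whose groups overlapped, with a difference of -0.26 ± 0.12 and an unadjusted limma p of 0.0701 (adjusted p = 0.647).

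The same tumors tended to be high or low across the mitotic members. Water replicate 3 was the highest water tumor for 10 of 11 members and the lowest for 0. TKI258 replicate 2 was the highest TKI258 tumor for 8 members and TKI258 replicate 3 the lowest for 8. The mean over the 11 members was 9.01, 9.03 and 9.25 in water and 8.66, 8.74 and 8.58 in TKI258 tumors. In several marker lists of other cell types, most or all members were also lower, or higher, in TKI258 tumors. All 13 keratinocyte markers had lower means (median difference -1.11), but 2 of 13 were without overlap (6.49% of all genes). Their list means overlapped, at 4.90, 6.73 and 6.33 in water and 4.77 to 5.01 in TKI258 tumors. For 10 of the 13 both group means lay below the array medians, though water replicates 2 and 3 rose above them in some (6.98 and 6.65 for Lor). Macrophage markers were lower in 9 of 9 cases (median -0.26, list means 9.29 to 9.85 in water and 9.13 to 9.30 in TKI258 tumors). The neutrophil list mean was 7.26 to 7.70 in water and 6.50 to 7.05 in TKI258 tumors, with 8 of 8 members lower and 1 below the array medians. The fibroblast list mean was 10.20 to 10.45 and 10.50 to 10.70, with 7 of 7 higher, and the adipocyte list mean was 6.35 to 7.52 and 7.55 to 9.18, with 10 of 10 higher. Muscle markers were lower in 7 of 7 and endothelial markers in 6 of 8 cases, with overlapping list means. The epithelial list mean overlapped, at 8.40 to 8.74 and 8.23 to 8.69, with 4 of 10 members lower. Its members went in opposite directions. Krt18 (-0.32) was lower without overlap (6.49% of all genes), and Cldn4 (0.91) and Krt7 (0.88) were higher without overlap (8.66% of all genes). Krt5 (-1.80) and Krt14 (-1.09) were high in water replicates 2 and 3 alone. The part of these cell types in the kinesin differences was not tested. With the 2 arrays that were high in B cell markers left out, the median of the mitotic members was -0.46. All 11 then had no overlap between 2 water and 2 TKI258 tumors, where 16.1% of all genes had every TKI258 tumor below every water tumor.

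Transport kinesins showed no common direction. Of 18 members, 9 were lower and 9 higher, with a median log2 difference of 0.00 and a range from -0.13 to 0.33. None had all TKI258 tumors below the water tumors, and 2 had all above, against 8.66% of all genes. One of them, Kifc2, had an unadjusted limma p under 0.05 with a higher signal, as did 3.79% of all genes. The mean over the 18 members was 7.65, 7.62 and 7.61 in water and 7.70, 7.66 and 7.60 in TKI258 tumors, so the groups overlapped.

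**Figure D2:**
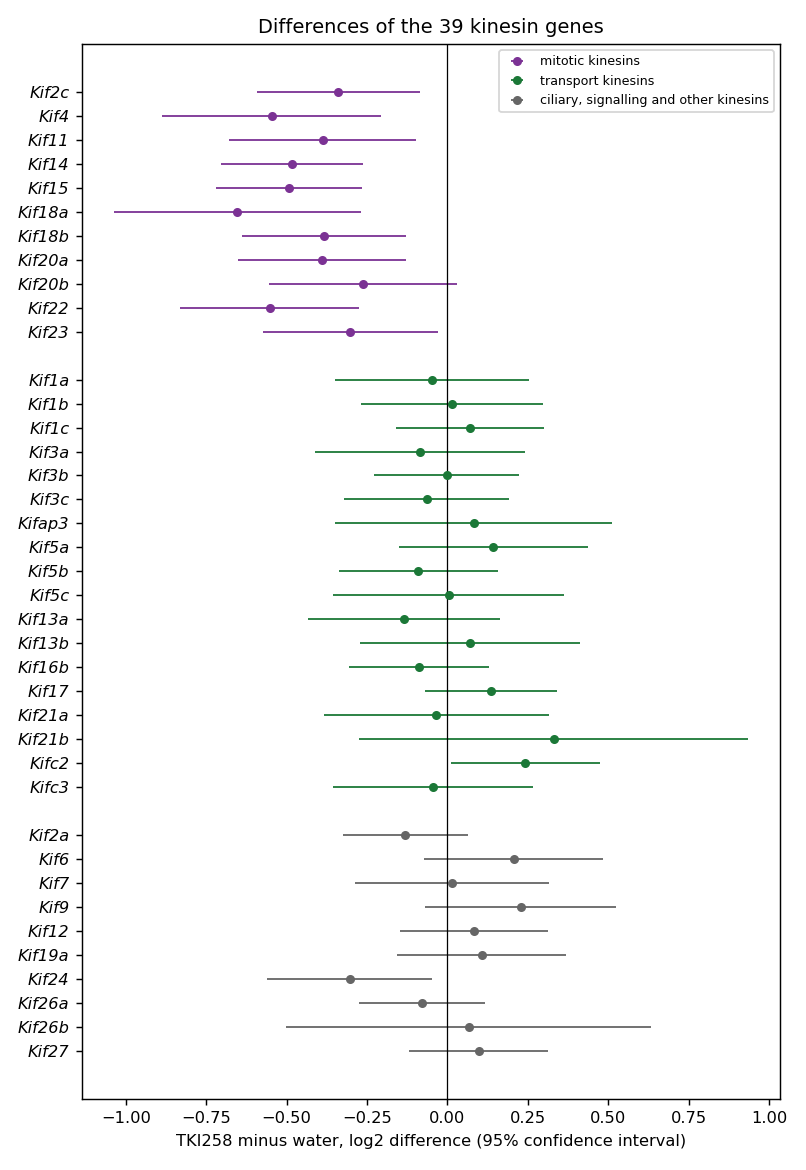
TKI258 minus water log2 difference (x axis) with its unadjusted 95% confidence interval from limma for the 39 kinesin genes, grouped as mitotic (purple), transport (green) and other (gray). The 11 mitotic members lie between -0.65 and -0.26 and the 18 transport members between -0.13 and 0.33.

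Conventional kinesin, which pulls vesicles and mitochondria toward the cell edge, has 3 alternative heavy chain genes. The ubiquitous Kif5b read 10.51, 10.59 and 10.68 in water and 10.55, 10.62 and 10.35 in TKI258 tumors. Its groups overlapped, and the 95% confidence interval of its difference (-0.09) ran from -0.34 to 0.16. The neuronal forms Kif5a and Kif5c had both group means below every array median (5.68 and 5.82 for Kif5a, 4.82 and 4.83 for Kif5c). They differed by 0.14 ± 0.12 and 0.00 ± 0.15. Of 10 neuron and Schwann cell markers measured in these tumors, 9 also lay below the array medians.

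Kif3a and Kif3b pair with Kifap3 to form the heterotrimeric kinesin that carries building material into cilia and also moves other cargo. Kif3a read 8.64, 8.60 and 8.67 in water and 8.72, 8.68 and 8.26 in TKI258 tumors. Kifap3 read 9.45, 9.69 and 9.46 in water and 9.78, 9.84 and 9.22 in TKI258 tumors. In both genes TKI258 replicate 3 was the lowest tumor and the other TKI258 tumors were above all water tumors. The difference of Kifap3 was 0.08 ± 0.18, and 0.28 without TKI258 replicate 3. For Kif3a it was -0.08 ± 0.14, and 0.06 without that tumor. Kif3b and Kif3c differed by 0.00 ± 0.09 and -0.06 ± 0.11. TKI258 replicate 3 was the lowest TKI258 tumor for 12 of the 18 transport members.

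Other motors of vesicles and organelles were close to 0. Kif1b, Kif1c, Kif13a, Kif13b and Kif16b, which move mitochondria, secretory vesicles and endosomes, differed by 0.01 ± 0.12, 0.07 ± 0.10, -0.13 ± 0.12, 0.07 ± 0.14 and -0.09 ± 0.09. The direction of Kif1b turned with median centring of the arrays (-0.0041), and that of Kif1c turned when its probe sets were averaged (-0.0050). Kif1a, a synaptic vesicle motor, had low signals (group means 5.63 and 5.58). The 95% confidence interval of Kif13b ran from -0.27 to 0.41 and that of Kif13a from -0.43 to 0.16. The difference of Kif11 (-0.39) lay inside the interval of Kif13a and outside that of Kif13b.

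Kif21b, a motor that slows microtubule growth and is known from neurons and lymphocytes, had the largest positive difference of the family (0.33 ± 0.25). It read 7.32, 7.19 and 7.03 in water and 7.38, 7.06 and 8.08 in TKI258 tumors. Only TKI258 replicate 3 stood high, and the difference was 0.04 without it. In the same tumor the T cell list mean was 8.22 against 5.65 to 6.84 in the other 5, and the B cell list mean was 8.81. All 8 T cell markers and all 9 B cell markers had higher means in TKI258 tumors, with overlapping groups, 3 of 8 and 5 of 9 had both means below the array medians, and their part in Kif21b was not tested. Its relative Kif21a differed by -0.03 ± 0.15.

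The transport members without overlap had low signals. Kifc2, a minus-end motor of neurons, read 6.06, 5.91 and 6.02 in water and 6.19, 6.16 and 6.38 in TKI258 tumors (0.24 ± 0.10, with an unadjusted limma p of 0.0430 and an adjusted p of 0.615). Kif17, a motor of dendrites and cilia, read 5.64, 5.48 and 5.51 in water and 5.74, 5.66 and 5.64 in TKI258 tumors (0.14 ± 0.09). Water replicate 1 and TKI258 replicate 3 were thus nearly equal. Both genes lay below the array medians in both groups. Kifc3, a minus-end motor linked to epithelial junctions and the Golgi, differed by -0.04 ± 0.13.

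Setting the mitotic against the transport members within each tumor removed any shift shared by all probe sets of an array. The mean of the mitotic members minus the mean of the transport members was 1.36, 1.41 and 1.64 in water and 0.96, 1.08 and 0.99 in TKI258 tumors. All TKI258 tumors were below all water tumors. The group values were 1.47 ± 0.15 and 1.01 ± 0.06 (SD, n = 3), a difference of -0.46, which is larger than the SD of either group. No test is given, since the members were chosen with results of these data known. Leaving out single arrays gave -0.52 to -0.38.

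**Figure D3:**
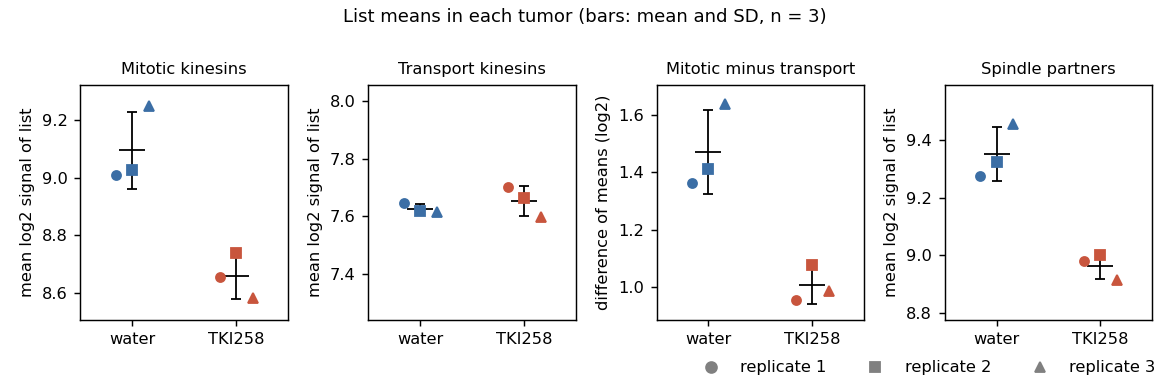
List means in each water (blue) and TKI258 (red) tumor, with symbols for the replicate number and bars for the mean and SD of 3 tumors; all panels span the same number of log2 units. The mitotic, mitotic minus transport and spindle partner panels show TKI258 tumors below all water tumors, while transport kinesins overlap at 7.60 to 7.70.

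The 10 other members were mixed, with 3 lower and 7 higher and a median difference of 0.07. Without overlap, 2 of the 10 were lower (6.49% of all genes) and 1 was higher (8.66% of all genes). The median was -0.08 over the 5 members left by the low-signal filter. Kif24, which caps centrioles and blocks cilium growth in dividing cells, was the member outside the mitotic class closest to it in size. It read 7.42, 7.25 and 7.51 in water and 6.99, 7.07 and 7.21 in TKI258 tumors, a difference of -0.30 ± 0.11 with an unadjusted limma p of 0.0270 and an adjusted p of 0.595. The groups did not overlap, and TKI258 replicate 3 was its highest TKI258 tumor, whereas it was the lowest for 8 mitotic members. Kif2a, a depolymerase of spindle poles and of neurites, read 9.33, 9.44 and 9.43 in water and 9.29, 9.30 and 9.22 in TKI258 tumors. Its groups were separate by a small margin, with a difference of -0.13 ± 0.08.

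**Figure D4:**
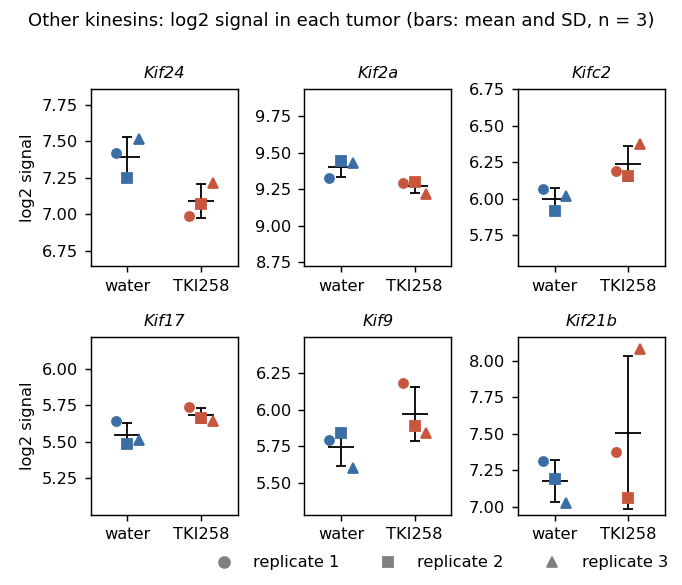
Log2 signal (y axis) of 6 kinesins outside the mitotic class in each water (blue) and TKI258 (red) tumor, with symbols for the replicate number and bars for the mean and SD of 3 tumors; all panels span the same number of log2 units. Kif24 and Kif2a are lower without overlap (6.49% of all genes), and Kifc2, Kif17 and Kif9 are higher without overlap (8.66% of all genes). Kif21b is high in TKI258 replicate 3 alone (8.08).

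Among these 10, 5 had low signals. Kif9, a motor of sperm tails and motile cilia, read 5.79, 5.84 and 5.60 in water and 6.18, 5.89 and 5.84 in TKI258 tumors (0.23 ± 0.12). Its closest tumors, water replicate 2 and TKI258 replicate 3, both read 5.84. Kif6, Kif12, Kif19a and Kif27 differed by 0.21 ± 0.12, 0.08 ± 0.10, 0.11 ± 0.11 and 0.10 ± 0.09. All 5 had both means below the array medians, as did 8 of 8 markers of ciliated cells. Kif7, the cilium tip regulator of Hedgehog signaling, differed by 0.01 ± 0.13 (-0.0038 with median centring), while its weaker probe set read 6.51 to 6.72 in water and 6.82 to 6.85 in TKI258 tumors (0.20 ± 0.09). Kif26a and Kif26b, which lack motor activity and act in signaling, differed by -0.08 ± 0.08 and 0.07 ± 0.24.

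Genes that work with the mitotic kinesins were lower too. Of 24 measured spindle and cytokinesis partners, 23 were lower (43.4% of all genes) and 22 had no overlap (6.49% of all genes), with a median difference of -0.38, and 0 passed over all probe sets. Racgap1, which forms centralspindlin with Kif23, differed by -0.24 ± 0.09. Prc1, the bundler bound by Kif4, differed by -0.40 ± 0.10, and Cit, the citron kinase held by Kif14, by -0.34 ± 0.10. The spindle assembly factor Tpx2, which binds Kif11, differed by -0.50 ± 0.10. Cenpe, the kinetochore kinesin that lies outside the Kif symbols, differed by -0.22 ± 0.14 and overlapped between groups, as Kif20b did. Nusap1 (-0.58 ± 0.09), Hmmr (-0.65 ± 0.11) and Spag5 (-0.57 ± 0.10), which bundle or anchor spindle microtubules, had the smallest p of the list (limma adjusted p = 0.484 for each). Of 11 proliferation markers, all 11 were lower without overlap (6.49% of all genes), among them Bub1 (-0.64 ± 0.12), Bub1b (-0.43 ± 0.09), Foxm1, which encodes an activator of late cell cycle genes (-0.47 ± 0.10), and Mki67 (-0.26 ± 0.09).

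Genes that work with the transport kinesins had medians near that of all genes. Of 16 measured light chains and cargo adaptors, 10 were lower and 6 higher, none without overlap, with a median of -0.02. Borcs5, Grip1 and Trak1, which link kinesins to lysosomes, receptors and mitochondria, had the smallest p and differed by 0.12 ± 0.10, 0.09 ± 0.09 and -0.08 ± 0.10. Both group means of Grip1 lay below the array medians. Of 21 genes of dynein and dynactin, the motor that runs the opposite way, 14 were lower (43.4% of all genes). The median of the list was -0.04, and 2 of the 21 were lower without overlap (6.49% of all genes). These 2 had the smallest p. They were Nde1, a dynein regulator that also acts in mitosis (-0.23 ± 0.08), and Dync1i2 (-0.21 ± 0.11). Dync1i1 (0.18 ± 0.10) followed, with both group means below the array medians. Of 29 genes of cilia and intraflagellar transport, 13 were lower and 16 higher with a median of 0.02. Ift22 (0.24 ± 0.11), Bbs2 (0.18 ± 0.09) and Dync2li1 (0.26 ± 0.14) led that list. Of the 29, Bbs2 alone was without overlap, and it was higher (8.66% of all genes). Both group means of Dync2li1 lay below the array medians. None of the genes in these lists passed limma over all probe sets.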

How the data were processed

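RNA of 6 tumors was measured on Affymetrix arrays. The authors deposited RMA values on a log2 scale, 1 per probe set and array. RMA, affy and limma are named, without versions, per the submitters' processing notes. Of 34760 probe sets, 21640 named 1 gene in the platform annotation, 1321 several and 11799 none. Genes were taken from the first kind alone. TKI258 and water were compared in limma 3.58.1 (R 4.3.3) with group as the only term, two-sided and without a filter. P-values were adjusted by Benjamini-Hochberg over all 34760 probe sets and called under 0.05. The test was tried on simulated arrays. The number of arrays limits the precision. The series calls the tumors individual, so p-values reflect spread between tumors. No gene's signal was ranked against another gene's, and list means were set against each other only as differences within a tumor.

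The members and all lists were chosen with earlier results of these data known, and no list was tested. All members were named. Per-tumor values are given for the mitotic members and for others with an unadjusted p under 0.05 or no overlap. From each pathway or marker list the rule took at most 3 genes with the smallest p, plus Mki67, Cenpe, Kifc1, Tpx2, Racgap1, Prc1 and Cit where measured. Krt8, Krt18, Epcam, Cldn7, Krt5 and Krt14, and the tumor values of Kif5b, Kif3a, Kifap3 and Kif21b, were added after their values were seen. Kifc1 was not analysed here. The alternatives were array weights, a trend and robust prior, a replicate block, low-signal and low-variance filters, median centring or quantile normalization, the average of a gene's probe sets, probe sets with 1 gene only, an adjusted p of 0.1, changed list membership, a shorter promoter window, and the omission of single arrays or of both arrays high in B cell markers. Motor positions in the proteins were not analysed here.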

Additional observations from a re-analysis of the deposited data

How the results depend on the processing

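No kinesin passed under any alternative, and 0 members were called with the replicate block, where the median of the mitotic members stayed -0.39. The labels do not say whether shared replicate numbers pair the tumors. Deviations of same-numbered tumors from their group means correlated at -0.232, 0.186 and 0.00897. With 3 tumors per group these values cannot decide whether tumors were paired. All 11 mitotic members kept their direction under the 14 settings that refit each gene and their median without single arrays was -0.47 to -0.38. Over all probe sets 2 passed with the low-variance filter, 1 without the arrays of water replicate 1 and TKI258 replicate 3 together (the 2 high in B cell markers) and 0 to 3 without single arrays (3 without water replicate 1). The transport median was 0.0705 with the low-variance filter (9 members left) and 0.0564 without those 2 arrays. The median of the other members was -0.0787 with the low-signal filter (5 left), 0.14 with the low-variance filter (4 left) and 0.0183 to 0.11 without single arrays. Without the bases past the start, TTTGAA was in 5 of 10 mitotic (Kif2c and Kif14 among them) and 1 of 12 transport promoters against 18.3% of all genes. Directions turned for small differences outside the mitotic class, and the cause was not tested. With quantile normalization Kif3b was 0.0346 and Kif5c -0.0372. With median centring Kif1b was -0.00411, Kif5c -0.0137 and Kif7 -0.00382. With array weights Kif3b was 0.0525, Kif5c -0.0873 and Kifc3 0.0384. Without those 2 arrays Kif3a was 0.0657, Kif3b 0.024, Kif21a 0.13, Kifc3 0.0192 and Kif7 -0.0661. With probe sets averaged Kif1c was -0.00501. Without single arrays the ranges that crossed 0 were -0.12 to 0.082 for Kif1a, -0.0698 to 0.0934 for Kif1b, -0.17 to 0.0624 for Kif3a, -0.0445 to 0.0583 for Kif3b, -0.14 to 0.00661 for Kif3c, -0.0334 to 0.28 for Kifap3, -0.11 to 0.13 for Kif5c, -0.0504 to 0.21 for Kif13b, -0.17 to 0.054 for Kif21a, -0.11 to 0.0785 for Kifc3, -0.0892 to 0.11 for Kif7 and -0.18 to 0.20 for Kif26b. Both group means of 10 of the 39 members lay below the array medians, which limits what could be measured for them.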

Other observations

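TTTGAA was also present in the promoters of 15 of 21 spindle and cytokinesis partners and 6 of 9 proliferation markers with an entry in the promoter table, against 20.2% of all genes there. In the 250 bases before the start alone it was in 7 of 21 and 5 of 9, against 18.3% of all genes. Within 40 bases of the start it was in 13 of 21 and 3 of 9, against 4.84%. TTCGAA, the variant found in Kif24, was in 0 of 10 mitotic kinesins, 0 of 21 partners and 4 of 9 proliferation markers. It was in 1.8% of all genes in the promoter table. These are shares of letters in a fixed window and carry no test.

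The weaker probe sets of other members were as follows. That of Kif1c differed by -0.08 ± 0.14, against 0.07 for the brighter one, that of Kif26b by 0.15 ± 0.15, against 0.07, and that of Kif6 by 0.04 ± 0.17, against 0.21.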
